A study of Homo sapiens with 12 samples.

Results

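The 6 receptors for lysophosphatidic acid (LPA) and ENPP2, the gene of the enzyme that makes LPA outside the cell, were followed through RNA sequencing of LNCaP, an established human prostate cancer cell line that responds to androgen. These 7 genes, LPAR1 to LPAR6 and ENPP2, are 7 of the 63677 Ensembl gene IDs in the count table and were found by the ID of each symbol. The family was chosen by a measured pattern in 1 member: LPAR3 had moved in opposite directions when USP22 was raised and when it was lowered. Values of LPAR3 in those comparisons are therefore given as a description, with no test. Of the 7 genes, 5 passed the filter on low counts that the tests needed, and LPAR1 and LPAR4 did not.

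USP22 is a ubiquitin protease of the SAGA transcriptional coactivator. The 12 libraries came from 4 groups of 3: LNCaP cells with the pLPLUC vector control, with USP22 overexpression, with an shRNA control (shCON), and with the shRNA shUSP22-4693 against USP22. All cells were LNCaP-derived and kept in hormone-proficient medium. Both shRNA groups also received 1 ug/mL doxycycline every 48 hours for 5 days, which the other groups did not. Each manipulation is thus represented by 1 construct, and the labels do not say whether the replicates were separate cultures, so p-values measure the spread between these libraries, which may be technical.

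Total reads per library ran from 77607469 to 103690001. USP22 followed its labels, with a log2 fold change of 1.52 on overexpression and -0.89 on depletion. Levels are given in CPM, read counts set to a common depth by scaled library size. The 9 luminal prostate markers, KLK3 among them, had reads in all libraries and summed to between 4592 and 6629 CPM. The 17 markers of basal, stromal, endothelial and blood cells summed to between 25.4 and 37.1 CPM, mostly VWF and COL1A1, and PECAM1 was at 0 reads throughout. Vector control replicate 3 stood apart from its group mates: its log2 levels had an SD of 0.256 around their mean, against 0.157 and 0.16 for replicates 1 and 2. In bulk RNA, fewer expressing cells and less RNA per cell cannot be told apart.

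LPA is a signalling phospholipid of serum and tissue fluid that acts on G protein-coupled receptors of the cell surface. LPAR1, LPAR2 and LPAR3 form the EDG family together with the sphingosine-1-phosphate receptors, whereas LPAR4, LPAR5 and LPAR6 resemble the purinergic P2Y receptors. The receptors signal through Gi, Gq and G12/13 proteins to calcium release, MAP kinases and small GTPases. Autotaxin, the product of ENPP2, cleaves lysophosphatidylcholine to LPA, and lipid phosphate phosphatases remove the phosphate again. In prostate cancer cell lines LPA is known as a mitogen and a stimulus of migration.

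The sequence ahead of LPAR3 is shown because it is the receptor on which these results turn. It lies at chr1:84893217-84893456 on the minus strand (GRCh38.p14, RefSeq) and ends just short of the transcript. It is printed 5′ to 3′ with matches to the searched motifs in capitals.
LPAR3: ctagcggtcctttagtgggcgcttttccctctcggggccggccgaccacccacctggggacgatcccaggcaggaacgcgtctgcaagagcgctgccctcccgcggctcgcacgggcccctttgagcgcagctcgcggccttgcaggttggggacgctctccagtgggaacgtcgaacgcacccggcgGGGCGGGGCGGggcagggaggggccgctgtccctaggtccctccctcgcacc
The capitals hold 2 matches to GGGCGG, the core of a GC box, which share a base. GGGCGG is present in 41.4% of the 35116 RefSeq promoter windows of the same 240 bases, read on both strands. No match was found to CCAAT (31.4% of windows), TATAAA (10.6%), CACGTG (6.01%) or TGACTCA (4.11%). The window held 26 CpG dinucleotides against a median of 10 over all windows. The window of LPAR2 held 28, that of LPAR6 held 2, that of LPAR4 held 5 and that of LPAR5 held 1. The 6 windows of LPAR1 held between 2 and 37.

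LPAR3, an EDG-family receptor that prefers LPA with unsaturated chains, was higher with USP22 overexpression and lower with USP22 depletion than in the matched control, and the depleted cells held the lowest level. In the vector control it stood at 27.2, 28.3 and 25.5 CPM in replicates 1, 2 and 3. With USP22 overexpression it stood at 38.4, 35.7 and 38.9 CPM. All 3 overexpressing libraries lay above all 3 vector controls, with group levels of 27 ± 1.4 and 37.7 ± 1.71 CPM (SD, n = 3 each). The difference was 1.4-fold, or 0.48 (SE 0.07) on the log2 scale.

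In the shRNA control LPAR3 stood at 39.3, 37.1 and 37.4 CPM. In the cells with the shRNA against USP22 it stood at 11.1, 12.6 and 10.5 CPM. Every depleted library lay below every shRNA control and also below every vector control. The group levels were 37.9 ± 1.19 and 11.4 ± 1.1 CPM (SD, n = 3 each), a log2 fold change of -1.74 (SE 0.08), or 0.3 of the shRNA control. On the log2 scale the depletion difference was larger in size than the overexpression difference, and the 2 together spanned 2.22 (SE 0.11). Luminal markers moved with depletion too: of 9, 1 rose and 6 fell (median log2 fold change -0.26), where 19.8% of all tested genes were called. On overexpression 1 fell (median -0.13), where 4.11% were called, and their part in the LPAR3 levels was not tested. Of the 8 tested markers of other cell types 1 rose and 2 fell on depletion.

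**Figure D1:**
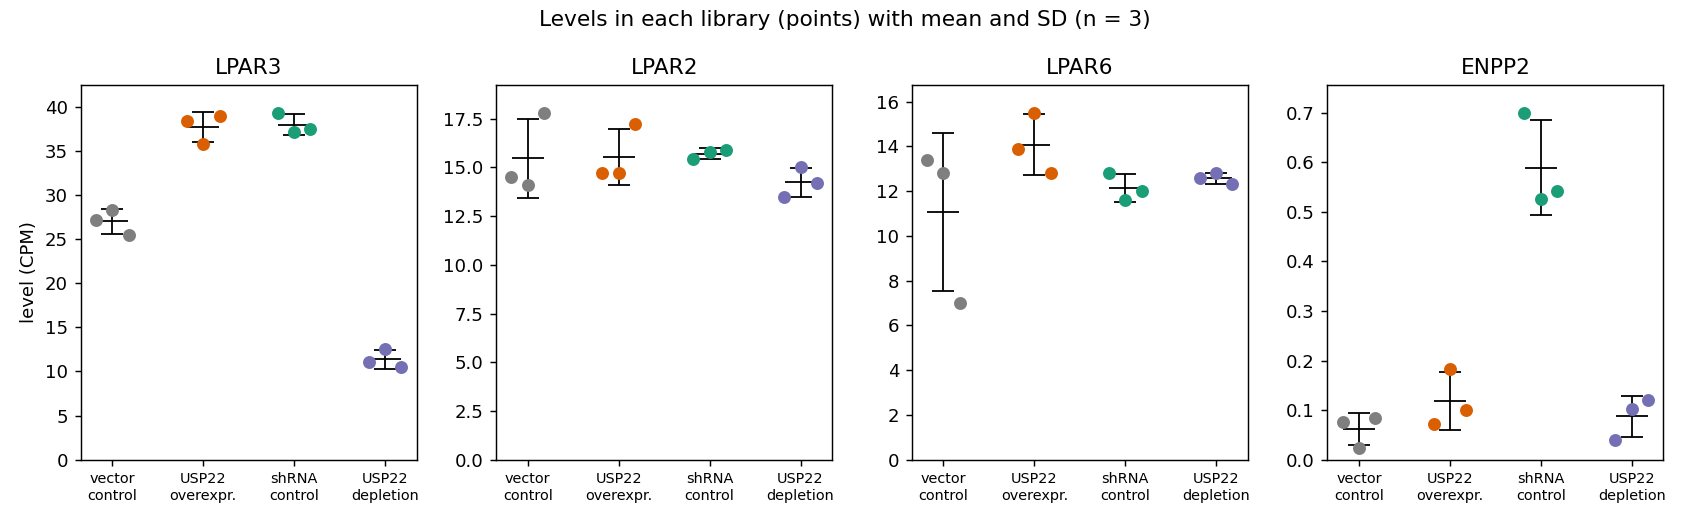
Levels in CPM (y axis, from 0, a separate scale for each gene) of LPAR3, LPAR2, LPAR6 and ENPP2 in the 4 groups (x axis). Points are libraries and bars the mean and SD of 3; LPAR3 is lowest in the depleted cells, at 10.5 to 12.6 CPM, ENPP2 is high in the shRNA control alone, and LPAR6 has 1 low vector control at 7.02 CPM.

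The order of LPAR3 levels did not follow USP22 across all 4 groups. The shRNA control, at 478 ± 3.65 CPM of USP22, held 37.9 CPM of LPAR3, while the vector control, at 512 ± 45.9 CPM of USP22, held 27 CPM (SD, n = 3 each). LPAR3 was thus 1.4-fold higher in the shRNA control than in the vector control (log2 difference 0.49, SE 0.07), as far above it as the overexpressing cells were. LPAR3 in the overexpressing and shRNA control cells overlapped, with mean levels in a ratio of 1.01, although USP22 stood at 1466 ± 52.2 CPM in the former. From lowest to highest the order was depletion, vector control, overexpression and shRNA control, and the last 2 did not differ beyond their spread. The difference between the controls shares its libraries with both USP22 comparisons. Doxycycline, the construct and the derivation of the cells cannot be told apart in it.

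**Figure D2:**
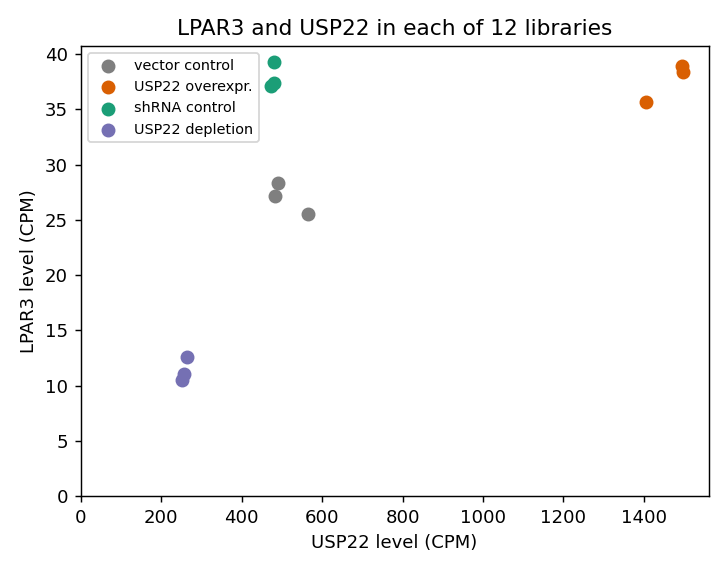
LPAR3 level (y axis, CPM) against USP22 level (x axis, CPM) in the 12 libraries, coloured by group. The shRNA controls reach 37.1 to 39.3 CPM of LPAR3 at 473 to 480 CPM of USP22. The vector controls hold 25.5 to 28.3 CPM of LPAR3 at 482 to 565 CPM of USP22.

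LPAR2, another EDG-family receptor, was expressed in every library and was not called in any comparison. It stood at 14.5, 14.1 and 17.8 CPM in the vector control and at 14.7, 14.7 and 17.2 CPM with overexpression. These groups overlapped (edgeR adjusted p = 0.98, log2 fold change 0.01, SE 0.09). Libraries of the shRNA control held 15.4, 15.8 and 15.9 CPM and those of the depleted cells 13.5, 15 and 14.2 CPM. The depleted libraries lay just under the shRNA controls, by a log2 difference of -0.14 (SE 0.09, edgeR adjusted p = 0.337). LPAR2 gives a reference within the family that needs no library scaling: per 100 LPAR2 reads there were 177 ± 29.8 LPAR3 reads in the vector control, 244 ± 17.5 with overexpression, 242 ± 11.3 in the shRNA control and 79.7 ± 5.49 after depletion (SD, n = 3 each). LPAR2 itself varied: the ratio was 144 in vector control replicate 3, where LPAR2 was highest, against 187 and 200 in its group mates. These ratios contain the LPAR3 values that chose the family.

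LPAR6, a P2Y-like receptor that couples to G12/13, was also expressed throughout and was not called. It stood at 13.4, 12.8 and 7.02 CPM in the vector control and at 13.9, 15.5 and 12.8 CPM with overexpression. The low library is vector control replicate 3, which also stood apart over all genes. The log2 fold change on overexpression was 0.34 (SE 0.16, edgeR adjusted p = 0.28), and 0.10 (adjusted p = 0.546) without that library. With no filter on low counts the value was 0.36 and passed the threshold (edgeR adjusted p = 0.00669). Levels of 12.8, 11.6 and 12 CPM in the shRNA control and 12.6, 12.8 and 12.3 CPM after depletion overlapped (edgeR adjusted p = 0.877, log2 fold change 0.05, SE 0.16).

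The LPAR6 gene lies within RB1, the retinoblastoma gene, on the opposite strand of chromosome 13, with no shared exonic bases in GENCODE 29. The sources used here do not state whether counting used strand, so reads of unspliced RB1 RNA and of LPAR6 cannot be told apart. RB1 dropped in the same vector control library, to 43.8 CPM against 70.7 and 73.6 CPM in its group mates. Per 100 RB1 reads there were between 14 and 19 LPAR6 reads in the 12 libraries, and 16 in that library. The part of RB1 reads in the LPAR6 values was not tested.

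The other receptors were at or near the limit of detection. LPAR1, often the most widely expressed LPA receptor of other tissues, had 2 reads in overexpression replicate 2, 2 in shRNA control replicate 2 and 0 in the other libraries. LPAR4 had 2 and 1 reads in shRNA control replicates 2 and 3 and 0 elsewhere. A count of 0 allows up to 3 reads, which is between 0.0269 and 0.0423 CPM depending on the library, and such limits cover counting error only. LPAR5, a P2Y-like receptor of immune and sensory cells, had between 0 and 20 reads per library: 20 reads summed over the vector controls, 8 with overexpression, 17 in the shRNA controls and 35 after depletion. Its groups overlapped in both comparisons, with log2 fold changes of -1.37 (SE 1.03, edgeR adjusted p = 0.509) and 1.07 (SE 0.84, edgeR adjusted p = 0.438). LPAR5 passed the filter on low counts only through its highest libraries. These were depletion replicates 2 and 3, with 20 and 11 reads, and vector control replicate 2, with 12. The filter thus leaned on groups that these tests compare, and neither p is a fair test of LPAR5. The SD of its level within a group was 65.4% of the mean after depletion, where counting alone would give 29.3%, and 86.7% against 61.2% with overexpression. With so few reads an excess over counting error was not tested.

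Per exonic length, which allows levels of different genes to be compared roughly, LPAR3 led in the control and overexpressing cells and not in the depleted cells. The lengths take in all merged exons of GENCODE 29, 16 for LPAR6 and 3 for LPAR3, whether or not these cells use them. The order of genes at close levels is therefore uncertain. In the vector control LPAR3 stood at 7.62 ± 0.395, LPAR2 at 5.19 ± 0.671 and LPAR6 at 2.55 ± 0.814 CPM per kb (SD, n = 3). In the depleted cells LPAR2 led at 4.78 ± 0.242, ahead of LPAR3 at 3.21 ± 0.31 and LPAR6 at 2.89 ± 0.0526 CPM per kb. LPAR3 and LPAR6 were close there, with libraries of LPAR3 between 2.95 and 3.55 and of LPAR6 between 2.84 and 2.94 CPM per kb. LPAR3 made up 49.5 ± 1.15% of the summed receptor level in the vector control, 55.7 ± 1.42% with overexpression, 57 ± 0.692% in the shRNA control and 29.3 ± 1.42% after depletion. The summed level lay between 14.8 and 15.7 CPM per kb in the vector controls and between 18.6 and 19.7 with overexpression. It lay between 18.5 and 19.2 in the shRNA controls and between 10.6 and 11.6 after depletion. These shares contain the LPAR3 values that chose the family, and they measure RNA and not receptor protein.

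**Figure D3:**
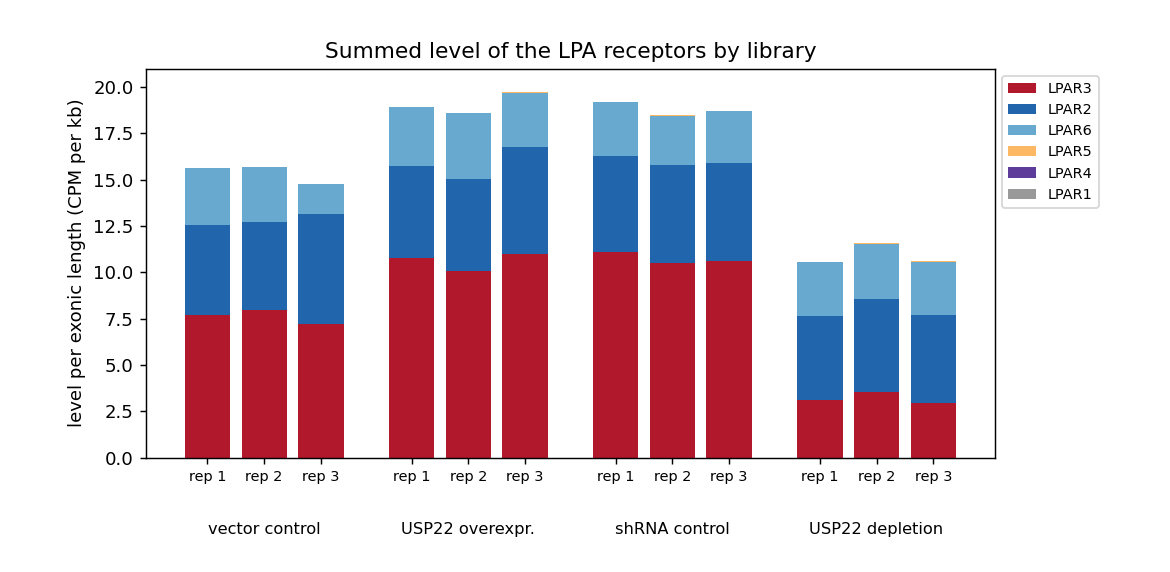
Level per exonic length (y axis, CPM per kb) of the 6 LPA receptors, stacked, in each of the 12 libraries (x axis, by group and replicate). LPAR3 is the largest block in all libraries but the 3 depleted ones, where the sum is 10.6 to 11.6 CPM per kb; LPAR1, LPAR4 and LPAR5 are barely or not visible.

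ENPP2, the gene of autotaxin, was very low and had its highest level in the shRNA control. It had 6, 2 and 6 reads in the vector controls and 6, 15 and 8 with overexpression. It had 78, 45 and 53 reads in the shRNA controls and 4, 10 and 10 after depletion. The shRNA controls lay above all other libraries, at 0.589 ± 0.0966 CPM against 0.088 ± 0.0417 CPM after depletion and 0.0617 ± 0.0326 CPM in the vector control (SD, n = 3 each). Even so the level per exonic length in the shRNA control was 0.0876 CPM per kb.

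ENPP2 passed the filter on low counts only through the shRNA control, where it is high, so a gene tested this way was bound to differ, and its values against that group are given with no test. ENPP2 in the depleted cells stood at 0.149 of the shRNA control (log2 difference -2.75, SE 0.42). In the shRNA control it stood 9.54-fold above the vector control (log2 difference 3.25, SE 0.46), and these comparisons share the shRNA control. Its exons share 162 bases with CYCSP23, a pseudogene on the same strand, so part of these few reads is uncertain. On overexpression it was not called (edgeR adjusted p = 0.381, log2 fold change 0.94, SE 0.55). The depleted cells were at the level of the vector control, with overlapping libraries.

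Of the 4 tested members other than LPAR3, edgeR called 0 on overexpression, where 4.11% of the 26076 tested genes were called. At an unadjusted p under 0.05 there were 0 of the 4 by edgeR and 1 each by DESeq2 and limma voom, and the latter tools also called 0 after adjustment. On depletion 19.8% of tested genes were called, and between the controls 43% were. LPAR2, LPAR5 and LPAR6 were not called in either. ENPP2 is left out of the count because of the filter, which LPAR5 also passed partly through depleted libraries. With 3 libraries on each side, an exact two-sided permutation p cannot be smaller than 0.1, so single genes were judged by the fit over all genes.

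Among 14721 named genes that averaged 1 CPM or more, DTNA, UTRN, NFYA, GRIN3A and LRBA were the 5 whose log2 levels ran most like LPAR3 over the 12 libraries. DTNA, a component of the dystrophin complex, had a Pearson r of 0.979. Its level was 6.56 ± 0.34 CPM with the vector, 9.22 ± 0.586 with overexpression, 8.33 ± 0.0874 in the shRNA control and 3.29 ± 0.261 after depletion. UTRN, the dystrophin relative utrophin (r = 0.969), NFYA, a subunit of the CCAAT-binding factor (0.962), GRIN3A, an NMDA receptor subunit (0.962), and LRBA, a vesicle-trafficking protein (0.962), were likewise lowest after depletion. GRIN3A went from 52.3 ± 2.67 CPM in the shRNA control to 16.1 ± 0.579 CPM after depletion. Between the vector control and overexpression GRIN3A was close to level, at 45 ± 0.89 and 45.4 ± 1.44 CPM (SD, n = 3 each). In the same order UTRN stood at 520 ± 8.07 and 534 ± 14.7 CPM and LRBA at 1211 ± 46.2 and 1240 ± 42.7 CPM, also within their spread. NFYA stood at 67.8 ± 4.65 and 74.1 ± 1.45 CPM. The 12 libraries share the 4 groups, so these correlations largely describe group levels, and 44 genes in all had an r over 0.9.

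Genes that make or break down LPA, other than ENPP2, moved in both directions. Of 13 listed genes 12 were tested. On overexpression 1 rose and 1 fell, where 4.11% of all tested genes were called, with a median log2 fold change of 0.04 against -0.01 over all tested genes. LIPH, a lipase that makes LPA from phosphatidic acid, rose from 3 ± 0.0937 to 4.39 ± 0.237 CPM (SD, n = 3 each, edgeR adjusted p = 0.0048). PLPP3, a phosphatase that removes LPA, fell from 12.9 ± 1.06 to 9.12 ± 0.717 CPM (SD, n = 3 each, edgeR adjusted p = 0.00304).

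On depletion 1 of these 12 rose and 4 fell, where 19.8% of all tested genes were called, with a median of -0.01 against 0.000238 over all tested genes. LIPH rose again, from 3.96 ± 0.334 in the shRNA control to 5.5 ± 0.377 CPM (SD, n = 3 each, edgeR adjusted p = 0.00227). AGPAT1, which converts LPA to phosphatidic acid, fell to 0.784 (edgeR adjusted p = 0.00341), PLPP2 to 0.763 (0.0143) and PLPP3 to 0.803 (0.0175) of the shRNA control. The calls of PLPP2 and PLPP3 were lost without any 1 of shRNA control replicates 1 and 2 and depletion replicates 1 and 3 (highest edgeR adjusted p = 0.078 and 0.125), and that of PLPP3 also without depletion replicate 2. LIPH rose and PLPP3 fell in both comparisons, unlike LPAR3, although the call of PLPP3 on overexpression was lost with the 6 compared libraries alone (edgeR adjusted p = 0.0522). Between the controls 4 of the 12 were higher and 5 lower in the shRNA control, where 43% of all tested genes were called. Without vector control replicate 3 the depletion count was 3 rises and 5 falls of 13.

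Among 16 related lipid receptors 7 were tested, and 1, S1PR3, was called on depletion, where 19.8% of all tested genes were called. S1PR3, a receptor for sphingosine-1-phosphate of the same EDG family as LPAR3, fell from 13.9 ± 0.543 to 6.2 ± 0.0648 CPM (SD, n = 3 each), by 1.16 on the log2 scale (SE 0.07, edgeR adjusted p = 1.88e-08). With overexpression S1PR3 stood at 18 ± 0.695 CPM against 20.5 ± 1.43 CPM in the vector control (SD, n = 3 each), a log2 difference of -0.18 (SE 0.07, edgeR adjusted p = 0.172). Its controls lay in the opposite order to those of LPAR3, with the shRNA control at 0.677 of the vector control (edgeR adjusted p = 7.92e-06). Between the controls 2 of the 7 were called higher and 1, S1PR3, lower in the shRNA control, where 43% of all tested genes were called. On overexpression edgeR, DESeq2 and limma voom called 0 of the 7, with 1 at an unadjusted p under 0.05. The list's median was -0.10 on depletion. On overexpression it was -0.09, and 0.22 with 1 fall without vector control replicate 3.

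Signal carriers downstream of the receptors moved in both directions. Of 19 listed G proteins, phospholipases and small GTPase pathway genes 18 were tested, and on overexpression 1 rose and 1 fell (median -0.05), where 4.11% of all tested genes were called. These were PLCB4, a phospholipase C activated by Gq (1.22-fold, edgeR adjusted p = 0.0367), and its relative PLCB1 (0.802 of the vector control, edgeR adjusted p = 0.0399). Both calls were lost with the 6 compared libraries alone (edgeR adjusted p = 0.205 and 0.259). PLCB4 also lost its call without any 1 overexpression library, shRNA control replicate 1 or 2 or depletion replicate 1, and PLCB1 without any 1 library other than vector control replicate 3. Without vector control replicate 3, 3 rose and 4 fell.

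On depletion 3 of the 18 rose and 3 fell (median -0.07), where 19.8% of all tested genes were called. Between the controls 6 of the 18 were higher and 3 lower in the shRNA control, against 43% called. PLCB4 rose from 77.4 ± 2.77 to 123 ± 4.51 CPM (SD, n = 3 each, edgeR adjusted p = 7.58e-06), GNAI1, a Gi subunit, 1.39-fold (0.00043) and PLCB1 1.33-fold (0.00154). RHOC fell to 0.78 (0.00414), GNA12, a G12/13 subunit, to 0.81 (0.00867) and GNAQ, the Gq subunit, to 0.735 (0.0107) of the shRNA control. The call of GNAQ was lost without shRNA control replicate 1, depletion replicate 1 or depletion replicate 3 (highest edgeR adjusted p = 0.0707). Without vector control replicate 3, 4 rose and 7 fell. GNAI1 differed far more between the controls, where the vector libraries averaged 30.3 ± 3.26 and the shRNA control libraries 7.58 ± 0.0904 CPM (SD, n = 3 each).

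Several genes known to be induced by LPA fell in each USP22 comparison. Of 14 listed genes 9 were tested, and on overexpression 4 fell and none rose (median -0.40 against -0.01 over all tested genes, of which 4.11% were called). AMOTL2, a YAP target, fell to 0.675 (edgeR adjusted p = 0.00154), FOS, an immediate early transcription factor, to 0.352 (0.00429) and HBEGF, an EGF receptor ligand, to 0.758 (0.0333) of the vector control. With the 6 compared libraries alone these 3 calls were lost (edgeR adjusted p = 0.0522, 0.0812 and 0.163), and HBEGF was also lost without any 1 of replicates 1 and 2 of overexpression, the shRNA control and depletion or replicate 2 of the vector control. In the limma voom fit 2 of the 9 were called, and without vector control replicate 3, 5 fell.

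On depletion 6 of the 9 fell and none rose (median -1.10), where 19.8% of all tested genes were called. AMOTL2 went from 13.1 ± 0.163 to 5.43 ± 0.103 CPM (SD, n = 3 each, edgeR adjusted p = 6.07e-08). CCN1, a matricellular protein and YAP target, went from 16.3 ± 0.904 to 7.62 ± 0.331 CPM (SD, n = 3 each, edgeR adjusted p = 3.8e-07). FOS fell to 0.34 of the shRNA control (edgeR adjusted p = 0.000366). Between the controls 7 of the 9 were higher in the shRNA control and 1 lower (median 0.86), where 43% of all tested genes were called. Set against the vector control, depleted cells held CCN1 at 7.62 against 6.74 ± 0.6 CPM, HBEGF at 6.22 ± 0.418 against 5.11 ± 0.351 and EGR1 at 0.905 ± 0.322 against 0.187 ± 0.0345. AMOTL2 after depletion lay below both controls, as LPAR3 did, with 7.89 ± 0.839 CPM in the vector control. FOS, at 4.67 ± 0.832 against 6.65 ± 2.59 CPM, and CCN2, at 0.171 ± 0.0465 against 0.242 ± 0.0962, had lower means within their spread (SD, n = 3 each). These genes also answer to serum, growth factors and cell shape, and the part of LPA in their levels was not tested.

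**Figure D4:**
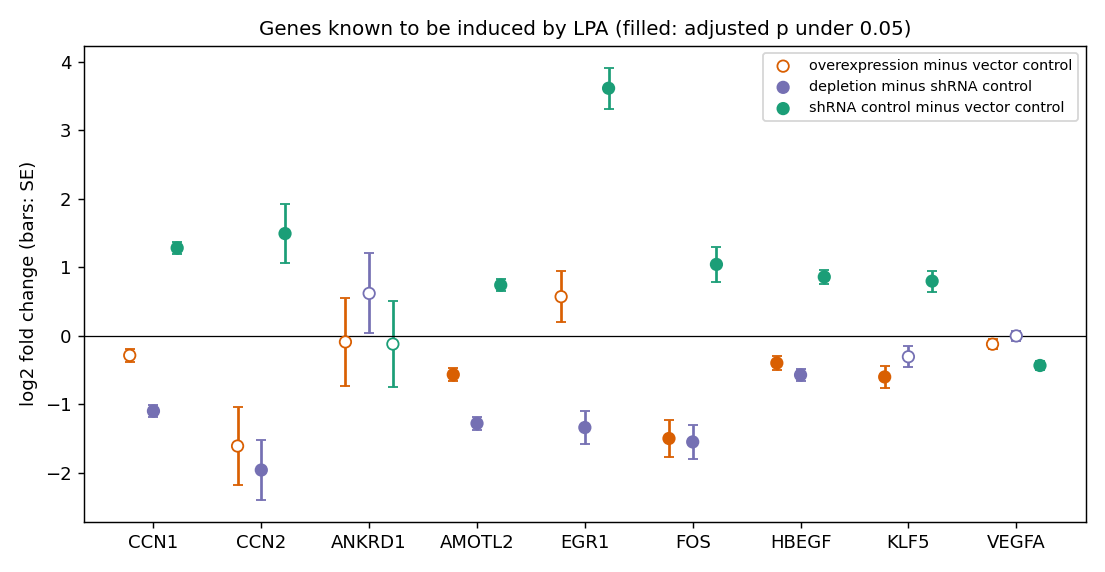
Log2 fold change (y axis, bars are SE) of the 9 tested LPA-inducible genes (x axis) in 3 comparisons of 3 against 3 libraries; filled points have an edgeR adjusted p under 0.05. On depletion 6 filled points lie below 0, on overexpression 4, and 7 of the 9 are filled above 0 for the shRNA control against the vector control.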

How the data were processed

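The authors deposited 1 table of raw read counts per Ensembl gene ID, with a column for each of 12 libraries of total RNA (a stranded kit for total RNA, per the labels). The submitters' processing notes name hg19, DESeq2 1.14.1, STAR 2.5.2a and featureCounts 1.5.0-p3. Neither the annotation release nor the strand setting is given in the sources used here. Columns were matched to samples by title. Symbols were found for 52181 IDs (81.9%).

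The analysis ran in R 4.3.3, with edgeR 4.0.16 on the counts: filterByExpr by group (26076 genes left), TMM scaling, and one quasi-likelihood fit to the 4 groups, which leaves 8 residual degrees of freedom. Benjamini-Hochberg adjustment covered every tested gene, with a threshold of 0.05. CPM values use the scaled library sizes. Exonic lengths are merged exons of GENCODE 29, and promoter sequences come from the RefSeq table, which held all 6 receptors. Depth sets the counting error of each library. The scripts' fits were tested on simulated data.

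The 7 genes, the 4 pathway lists and the tests were chosen with earlier results of these data known. Named genes were the 7 members, up to 3 called genes per list, comparison and direction with the smallest adjusted p, and the 5 genes most correlated with LPAR3 in log2(CPM + 1). USP22, RB1 and the neighbours of LPAR3 were added as references. Alternatives were RLE scaling, 2 other filters, DESeq2 1.42.0, limma 3.58.1 voom, dropping the 20 most abundant genes, a fit of only the libraries compared, a replicate block and leaving out each library. List counts without vector control replicate 3 were added after seeing the data. No 2 replicates were as close as counting noise, since their chi-square over its degrees of freedom was 6.55 or more. A searched promoter motif is not reported here.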

Additional observations from a re-analysis of the deposited data

How the results depend on the processing

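LPAR3 kept its direction in all 20 alternatives of each comparison, with log2 fold changes from 0.44 to 0.52 on overexpression and from -1.80 to -1.66 on depletion. It was chosen for these directions in the same libraries, so refits could hardly turn them, and the ranges are a description only. ENPP2, which only the shRNA control carried past the filter, made up the count of called members other than LPAR3 in the 3 comparisons with that group. At 1 CPM in at least 3 libraries it was not tested, and that count was 0 on depletion, between the controls and for the difference of the USP22 contrasts. With no filter that count was 1 on overexpression, LPAR6, and 2062 genes were called; the cause was not tested. Genes called on overexpression numbered 1072, against 1683 by DESeq2, 327 with only the libraries compared and from 501 to 1842 when 1 library was left out. Those on depletion numbered 5172, against 8115 with only the libraries compared and from 3523 to 8359 when 1 was left out, and those for the difference 2840, against 1909 to 5320. The highest of each range came without vector control replicate 3. Signs of uncalled values turned when 1 library was left out: LPAR2 ran from -0.0735 to 0.12 on overexpression, and between the controls LPAR2 ran from -0.043 to 0.13, LPAR5 from -0.98 to 0.13 and LPAR6 from -0.11 to 0.29. Of 803 alternative values of 41 fold changes, 749 were unchanged, 45 lost the call, 1 gained it and 8 changed sign. Unchanged meant the same direction and call. For LPAR3, which was given no call, it meant the same direction and a shift under its SD within groups. The 749 include LPAR3 and the values of ENPP2 against the shRNA control, which could hardly turn, so the count is a description only. Between groups, deviations of libraries with the same replicate number correlated at -0.07 to 0.28. The highest values, 0.266 and 0.284, were for replicates 2 and 3 of overexpression and vector control. Libraries of different numbers were not compared, so whether the numbers pair the libraries was not settled. With a replicate block 1098 genes were called on overexpression and 5272 on depletion, and no call among those 41 fold changes changed. Depth limits LPAR1, LPAR4, LPAR5 and ENPP2, with at most 78 reads a library.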

Other observations

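MCOLN2, a cation channel of endolysosomes, neighbours LPAR3 on chromosome 1 and was not called in either USP22 comparison. MCOLN2 stood at 11.6 ± 1.2 CPM in the vector control, 12.9 ± 0.111 with overexpression, 10.9 ± 0.69 in the shRNA control and 12.6 ± 0.924 after depletion (SD, n = 3 each). All its overexpressing libraries lay above all vector controls, and all its depleted libraries above all shRNA controls. Its log2 fold change on depletion was 0.22 (SE 0.09, edgeR adjusted p = 0.0877), where LPAR3 was at -1.74. Its relative MCOLN3 was at most 1.24 CPM in any library and was not called in either USP22 comparison (log2 fold change 0.91, edgeR adjusted p = 0.124, and 0.42, adjusted p = 0.356). MCOLN3 in the overexpressing libraries also lay above all vector controls.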
